A study of Mus musculus with 6 samples.

Results

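Among the CD45+ cells of the midbrain, a small set of macrophages carried MHC class II together with Col14a1, Klra2 or Lilra5 and had few transcripts of the genes that mark macrophages at the borders of the brain. It held 152 of the 77105 cells kept. Of these members, 71 of 34436 cells came from PFF + VH, 31 of 15031 from Monomer, 28 of 13021 from PFF + AZD1480 and 22 of 14617 from PBS. Below, values of 4 libraries are given in the order PBS, Monomer, PFF + VH, PFF + AZD1480. The cells were chosen by their own counts of UMIs (unique molecular identifiers, each standing for 1 captured transcript). A member had at least 1% of its UMIs in the MHC II genes H2-Aa, H2-Ab1, H2-Eb1 and Cd74 and at least 2 UMIs over Col14a1, Klra2 and Lilra5. It had at most 2 UMIs over the border macrophage genes Mrc1, Pf4, Cd163, Cbr2 and Lyve1 and at most 1 over the dendritic cell genes Flt3, Zbtb46 and Ccr7. The levels of these 15 genes in the members are therefore given as a description, with no test.

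Every group was made of male Line 61 mice, which overexpress human wild-type α-synuclein (α-Syn) from the Thy-1 promoter, a neuronal promoter, so that the controls carried the transgene as well. At 12 to 15 weeks of age the mice were injected into both striata with PBS, with monomeric α-Syn (Monomer) or with preformed α-Syn fibrils (PFF). From week 2 after the injection, PFF mice received either AZD1480, an inhibitor of JAK1 and JAK2, by gavage at 25 mg/kg a day or the vehicle with 0.1% DMSO (VH) for 4 weeks. At week 6, live CD45+ cells were sorted from ventral midbrains, 3 to 5 of which were pooled per sample, and made into 10x 3′ libraries. There was 1 mRNA library per condition, so that a condition and its library cannot be told apart. Both PFF libraries were also labelled with hashtags, 4 with VH and 5 with AZD1480, each taken here as a replicate sample. The sources used here do not state that each hashtag is a separate pool of animals, and a p-value over hashtags measures the spread between them, which may be technical.

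Macrophages that present antigen load peptides on MHC II, whose invariant chain is Cd74, and show them to CD4+ T cells. In the brain, MHC II is high on some macrophages of the meninges, perivascular spaces and choroid plexus and on dendritic cells, and low on resting microglia. Resident border macrophages are known for the scavenger receptors Mrc1, Cd163 and Lyve1, while cells that came from blood monocytes can carry Ccr2. Of the choosing genes, Col14a1 encodes a collagen that associates with fibrils, Klra2 a C-type lectin receptor of the Ly49 family and Lilra5 an activating receptor of the leukocyte Ig-like family. Of the other marker genes of the set, Fcgr4 encodes an activating IgG receptor and Cd72 a C-type lectin-like coreceptor best known from B cells. On mm10, Col14a1 lies at chr15:55307750-55520803 on the plus strand, Klra2 at chr6:131219223-131247362 on the minus strand and Lilra5 at chr7:4237754-4243463 on the plus strand. Fcgr4 lies at chr1:171018920-171029761 on the plus strand and Cd72 at chr4:43446462-43454628 on the minus strand.

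Of the cells kept, 1511 passed the MHC II limit, 451 of these had the 2 UMIs of the choosing genes, and 444 remained after the limit on dendritic cell genes. The last step, on border macrophage genes, divided these into 152 members and 292 cells with 3 or more border UMIs, 145 of them with 10 or more. No gap lay at that limit. Border UMIs numbered 0 in 83 cells, 1 in 32, 2 in 37, 3 in 31 and 4 in 27. For the choosing genes, 49 members had 2 UMIs, while 136 cells that met the other limits had 1 and 634 had 0. On the dendritic genes, 12 members had 1 UMI and 3 cells outside had 2. By MHC II, 4 members lay in a narrow band above the limit of 1% and 3 cells in a narrow band under it. Far more cells failed this limit at any distance, since 720 cells that met the other limits had MHC II under 1%.

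**Figure D1:**
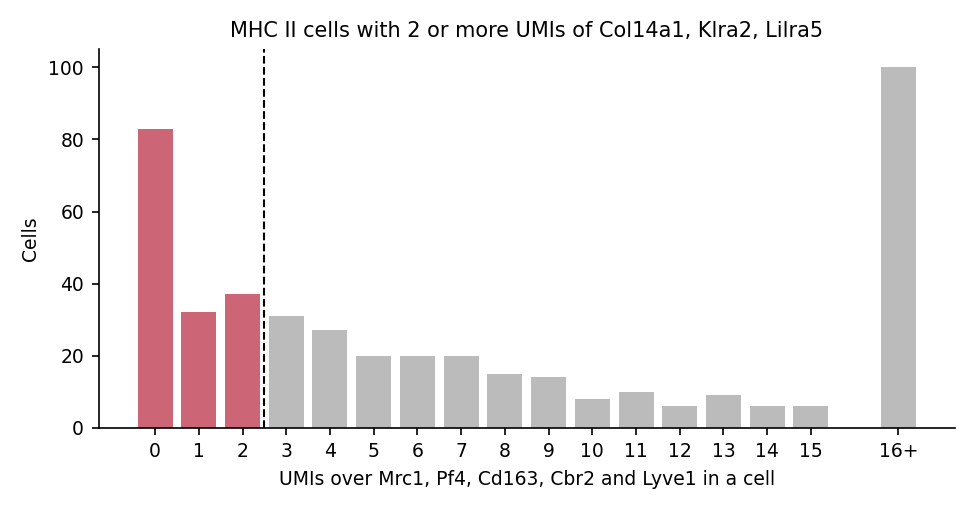
Number of cells (vertical axis) by their UMIs over Mrc1, Pf4, Cd163, Cbr2 and Lyve1 (horizontal axis), among the 444 cells that met every other limit; coloured bars are the 152 members, grey bars cells left out, and the dashed line is the limit. The bars fall from 37 cells at 2 UMIs to 31 at 3 with no gap between members and the cells left out.

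Each of the 3 choosing genes was carried by a different subset of the members. Klra2 was seen in 120 of the 152, Lilra5 in 100 and Col14a1 in 75, and 34 had all 3 genes. Klra2 with Lilra5 alone accounted for 41 members, Klra2 alone for 25, Col14a1 with Klra2 for 20, Col14a1 with Lilra5 for 14, Lilra5 alone for 11 and Col14a1 alone for 7. In UMIs per 1000000 UMIs of the summed members (CPM), Col14a1 stood at 109, 173, 201 and 234. Klra2 was at 498, 341, 364 and 271 CPM and Lilra5 at 121, 287, 313 and 175 CPM in the same libraries. PBS was thus the highest of the libraries for Klra2 and the lowest for Col14a1 and Lilra5. Without 6 of its members that were high in Ly6c2 and Plac8, and such cells of the other libraries, Lilra5 was at 187 CPM in PBS and 183 in PFF + AZD1480, Col14a1 at 167 in PBS and 173 in Monomer and Klra2 at 393 in PBS, so that PBS was no longer the lowest for Lilra5. The 10 other genes of the Klra family list that were found summed to 12.8, 5.41, 0 and 5.32 CPM in the members.

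The 3 choosing genes were not particular to the members. Border macrophages high in MHC II, which were defined by the same MHC II limit and at least 3 border UMIs with no condition on the choosing genes (467 cells, 110 to 120 per library), had Col14a1 at 87.6, Klra2 at 191 and Lilra5 at 216 CPM over the 4 libraries, against 185, 363 and 239 in the members. Microglia (62076 cells with MHC II under 1% and at least 5 UMIs over P2ry12, Tmem119, Sall1, Siglech and Gpr34) had 4.01, 0.482 and 8.78 CPM. Fcgr4 stood at 236, 168, 85.1 and 106 CPM in the members, against 111, 146, 63.4 and 58.1 in border macrophages. Cd72 was at 204, 130, 174 and 287 CPM against 102, 112, 89.6 and 111. Members were above border macrophages in all 4 libraries for both genes. Both were named as markers from these cells, so that their differences, here and in the lists below, are a description. In PBS, 21 of the 37 UMIs of Fcgr4 in members (56.8%) came from the 6 members with at least 3 UMIs over Ly6c2 and Plac8. In microglia Fcgr4 was at 18.2 CPM and Cd72 at 3.61 to 23.9 CPM by library.

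**Figure D2:**
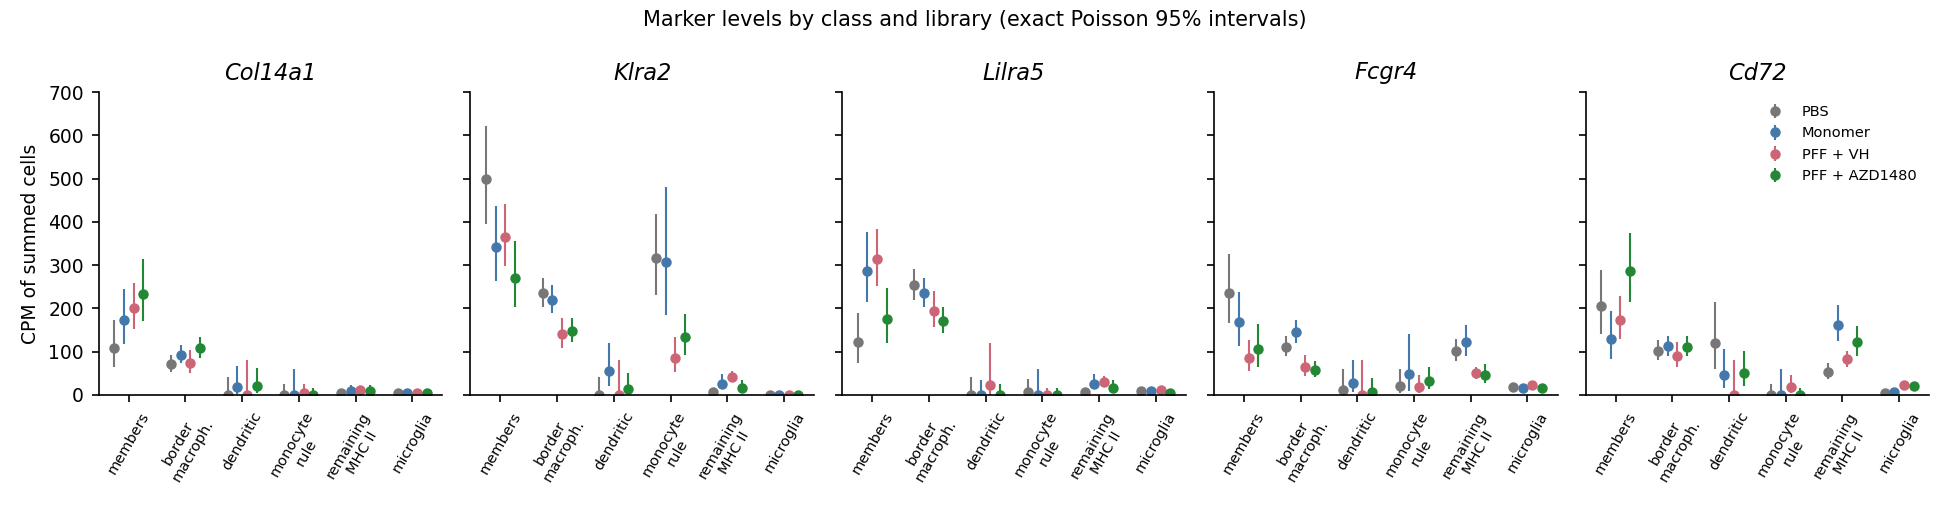
Level of the 5 marker genes, in CPM of the summed cells (vertical axis), in members and 5 other classes of cells (horizontal axis); each dot is 1 library and bars are exact Poisson 95% intervals, which cover counting error only. Col14a1 and Lilra5 are shared by members and border macrophages and reach at most 21.1 CPM over the 4 libraries in the other classes, while Klra2 is also seen in cells of the monocyte rule, at 174 CPM over the 4 libraries. The remaining MHC II cells were limited to under 2 UMIs over Col14a1, Klra2 and Lilra5, so that their low level is set by the rule.

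The members carried the genes by which macrophages are known. Csf1r, the receptor on which macrophages depend, stood at 837, 877, 1201 and 1042 CPM in PBS, Monomer, PFF + VH and PFF + AZD1480, and C1qa, a subunit of the complement starter C1q that macrophages make, at 4510, 5949, 6502 and 4540 CPM. MHC II took a median of 4.72% of a member's UMIs, from 1.03% to 12.9%, with library medians of 6.65%, 6.15%, 4.17% and 4.31%. Of 6 T cell markers 5 had no UMI in the 152 members (Cd3e, Cd3d, Cd3g, Trac and Cd8a), for which 0 UMIs allow up to 3.64 CPM. Ms4a1 of the B cell list, Ccr7, Xcr1 and Itgae of the dendritic list and the 3 red cell genes were also at 0. Fibroblast markers, which bear on Col14a1, summed to 5.41 to 25.6 CPM per library, with Col1a1, Col1a2, Col3a1 and Igfbp2 at 0. Neutrophil markers summed to 109 to 223 CPM and B cell markers to 224 to 327 CPM, against 373 to 577 and 178 to 186 CPM in microglia. The 8 microglia markers, all seen in the members and a part of the longer microglia list used below, summed to 2447, 3318, 6730 and 3679 CPM in the members. They summed to 3305 to 5179 CPM in border macrophages and 14720 to 17120 CPM in microglia.

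Depth differed between the libraries and moved with some of the results below. Median UMIs per member were 6836, 6192, 3715 and 6964, against 7028, 6688, 2306 and 6616 over all cells, and the summed members held 156532, 184744, 293891 and 188088 UMIs. More than 1 hashtag was found on 25 of the 71 members of PFF + VH, a share of 35.2% with an exact binomial 95% interval of 24.2% to 47.5%, against 10.7% of all its cells and 18.2% of its border macrophages. With AZD1480 it was 8 of 28 (28.6%, 13.2% to 48.7%), against 12.6% of all cells and 38.3% of border macrophages. Microglial UMIs (5 genes) had medians of 4.06, 5.88, 16.9 and 7.29 per 10000 UMIs of a member, with PFF + VH the highest. Of the members, 10 had no microglial UMI and 55 had at most 2, and 5 had 2 or more UMIs over Cd79a, Cd79b, Ms4a1 and Cd3e. No member's barcode was found in another library, whereas 1154 of the 77105 cells kept shared theirs. The part of depth, multiple hashtags and microglial RNA in the results was not tested except where values without such cells are given.

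Members were first set against border macrophages high in MHC II, counts being summed per library and class and tested with edgeR's quasi-likelihood test with the library as a block. Members had less of the genes that resident border macrophages are known for, while MHC II processing, complement and interferon genes did not pass the test. They had more of Il1b and, carried by few members, of the matrix protease Mmp12, calls that were lost in some of the settings below. Of 5225 genes tested, 119 had an adjusted p under 0.05, 48 of them higher in members (0.919% of those tested) and 71 lower (1.36%). The classes were drawn by genes of the same cells, so that genes expressed together with the genes of the rule differ with the choice, and these counts describe how far the 2 classes stood apart beyond those genes. No gap in border UMIs lay between the classes, and border macrophages could carry the choosing genes too.

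The genes lower in members were led by products of border macrophages. Both classes were drawn by border UMIs, so that genes expressed together with the border genes differ with the choice and are given as a description. F13a1, a clotting factor subunit made by tissue macrophages, stood at 63.9, 54.1, 27.2 and 112 CPM in the members and at 414, 251, 337 and 573 CPM in border macrophages (log2 difference -2.67, SE 0.23, adjusted p = 3.0e-06 by edgeR). Gas6, the ligand of the receptors Axl and Mertk, was at 6.39, 10.8, 13.6 and 21.3 CPM against 170, 140, 111 and 160 (log2 difference -3.36, SE 0.32, adjusted p = 4.7e-06). No library of members overlapped with one of border macrophages for either gene. Ccl8, a chemokine, had 2 UMIs in a single member (2.43 CPM, 95% interval 0.294 to 8.78) against 76.0 CPM in border macrophages, where 25 of 467 cells had any. Among the 8 lower genes named by rule were also Ear2, a ribonuclease of the eosinophil-associated family, Ptgds, a prostaglandin D2 synthase, the lectins Clec10a and Cd209a, and Cp, ceruloplasmin, with log2 differences from -3.05 (Ear2) to -2.57 (Cd209a). Ear2 lost its call without PFF + VH (adjusted p = 0.121), and Ptgds without Monomer (0.0818) or PFF + VH (0.0704).

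As a description for the same reason, of the 13 tested genes of the border macrophage list that the rule did not use, 9 were lower in members and none was higher. DESeq2 called 5 of the 13, with an adjusted p of 0.0557 for Fcrls and no adjusted p for Folr2, Ccl8 and Clec10a. The list's median log2 difference was -1.47 against 0.0023 over all genes tested. Maf, a transcription factor of resident macrophages, was at 121, 130, 208 and 165 CPM in members and 693, 541, 597 and 698 in border macrophages (log2 difference -1.98, SE 0.18, adjusted p = 4.7e-06). The scavenger receptor Stab1 had a log2 difference of -2.02, the endocytic adaptor Dab2 of -1.47 and the selenium carrier Selenop of -0.92. Folr2, a folate receptor, and Fcrls, an Fc receptor-like protein shared with microglia, were the other lower members of the list besides Ccl8, Clec10a and Gas6, and the call of Folr2 was lost without PFF + VH (adjusted p = 0.0678). Not all genes of resident macrophages followed. Ms4a7, a macrophage gene of the border list, was at 485, 871, 650 and 617 CPM in members and 533, 676, 345 and 348 in border macrophages (log2 difference 0.52, adjusted p = 0.14), and Apoe differed by -0.51 (adjusted p = 0.0604). Csf1r and Cx3cr1, the fractalkine receptor, had log2 differences of -0.33 and -0.02, with adjusted p of 0.31 and 0.992.

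Chemokines parted in both directions. Of 16 tested genes of the chemokine list, 7 were lower in members and 1 was higher, and DESeq2 called 3 of them (Ccl2, Cxcl1 and Ccl3). Ccl2, a ligand of Ccr2, was at 690, 119, 139 and 542 CPM in members against 1098, 714, 739 and 1448 in border macrophages (log2 difference -1.63, SE 0.23, adjusted p = 0.00041), and the highest library of members, PBS, lay below the lowest of border macrophages. Without the library block its adjusted p was 0.152. Ccl7 and Ccl8, further ligands of monocyte receptors, Ccl12, Cxcl1, Cxcl2 and the receptor Ccr1 were the others that were lower, and some of these calls did not hold when 1 library was left out. The call of Ccl12 was lost without Monomer (adjusted p = 0.134), that of Cxcl1 without PFF + VH (0.0636), that of Cxcl2 without either (0.0566 and 0.0584) and that of Ccr1 without any library but PBS (up to 0.102). Ccl3, a ligand of Ccr1, was higher by 0.54 (SE 0.14, adjusted p = 0.0448), a call that was lost without PBS, Monomer or PFF + VH (0.133, 0.467 and 0.215). Ccl4 stood at 5833, 5667, 5764 and 5535 CPM in members against 3699, 3250, 3839 and 6320 and did not pass the test (log2 difference 0.49, adjusted p = 0.122).

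Il1b, the cytokine released by inflammasomes, was the gene of the inflammatory list that rose, 1 of 11 tested. It was at 2115, 3697, 3141 and 2999 CPM in members and 1066, 1720, 1281 and 2342 in border macrophages of PBS, Monomer, PFF + VH and PFF + AZD1480 (log2 difference 0.96, SE 0.15, adjusted p = 0.00135), higher in each library, and was seen in 112 of the 152 members. Its adjusted p was 0.051 without Monomer and 0.0952 without the library block. Microglia had 319 CPM. Tnf was at 358, 422, 619 and 431 CPM against 242, 297, 345 and 507 and did not pass the test (log2 difference 0.44, adjusted p = 0.349). Tgfbr1, a receptor of TGF-β, was at 894, 1478, 1181 and 1255 CPM against 826, 742, 721 and 658 (log2 difference 0.72, adjusted p = 0.0118), a call lost without Monomer (0.201) or PFF + VH (0.0704), and microglia had 1760 CPM of it.

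The 8 higher genes named by rule were mostly carried by few members. Mmp12, a macrophage elastase, was at 230, 108, 303 and 10.6 CPM in members of PBS, Monomer, PFF + VH and PFF + AZD1480, against 2.52, 55.4, 80.9 and 5.16 in border macrophages (log2 difference 2.31, SE 0.46, adjusted p = 0.0091). Its 147 UMIs came from 17 members, and 53.7% of them from 3 cells, and its adjusted p was 0.412 in DESeq2 and 0.19 without the library block. Tent5c, a poly(A) polymerase, was the most widely seen, in 69 members, at 121, 189, 146 and 250 CPM against 42.9, 57.8, 61.2 and 55.5 (log2 difference 1.70, SE 0.21, adjusted p = 1.0e-04). Each of the 4 libraries of members lay above all libraries of border macrophages for Tent5c. Grap2, an adaptor downstream of the T cell receptor, was at 109, 75.8, 34.0 and 181 CPM against 21.5, 26.5, 24.1 and 32.3 (log2 difference 1.88, adjusted p = 0.0018) and seen in 34 members. The transcription factor Dach1, the intermediate filament Nes, Apbb2 and the growth factor Csf1 were also among them, with log2 differences of 2.20, 1.98, 1.69 and 1.68. Of the 100 UMIs of Csf1, 77.0% came from 3 cells, and its call was lost without Monomer (0.145) or PFF + AZD1480 (0.321).

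Microglia carried some of these genes at the level of the members. Their CPM was 175 for Tent5c, 185 for Apbb2 and 220 for Csf1, against 175, 145 and 121 in the members, whereas Grap2 was at 1.33, Dach1 at 0.301, Nes at 8.33 and Mmp12 at 7.26 CPM in microglia. With members limited to at most 2 microglial UMIs and border macrophages not limited, 27 of 4162 genes passed the test, and Mmp12, Tent5c and Grap2 kept their call. The limit acts on 1 side only, so that genes that microglia carry can be lower in members by it. Dach1, Nes and Csf1 were not tested there, and Apbb2 had an adjusted p of 0.398. Of the 8 lower genes named by rule, Ccl8, Gas6 and F13a1 kept their call there and Ear2, Ptgds, Clec10a, Cp and Cd209a did not (adjusted p 0.161 to 0.637).

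**Figure D3:**
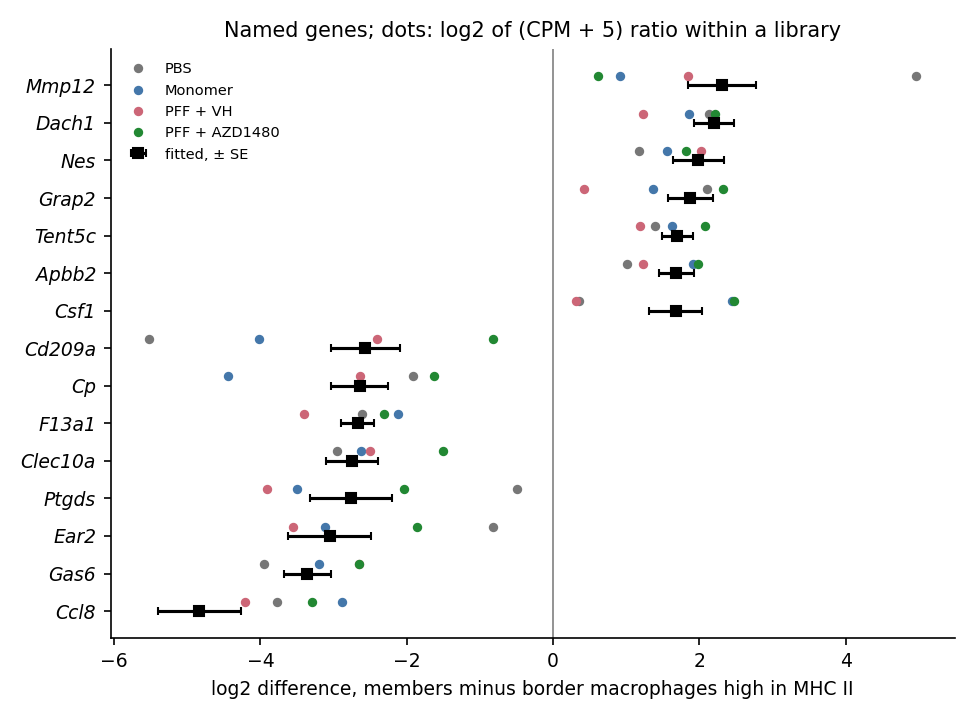
Log2 difference of members minus border macrophages high in MHC II (horizontal axis) for 15 genes named by rule (vertical axis); squares with bars are the fitted value ± SE of edgeR, and dots the ratio of CPM + 5 within each library. The dots of all 4 libraries fall on the same side of 0 for each gene, which the rule for naming genes required. The value of Ccl8 rests on 2 UMIs in members, and the dot of Mmp12 in PFF + AZD1480 on 2 UMIs in 1 member.

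Of 11 antigen presentation genes beyond the rule, 0 passed edgeR's test or DESeq2 between members and border macrophages, 4 had an unadjusted p under 0.05, and the median log2 difference was 0.0606. The peptide loader H2-DMa was at 971, 861, 575 and 739 CPM in members against 794, 859, 739 and 721 (adjusted p = 0.996), Ciita, the master activator of MHC II genes, had an adjusted p of 0.984, and the costimulatory genes Cd83 and Cd86 had log2 differences of 0.28 and 0.30 (adjusted p = 0.379 and 0.377). By both tools 0 genes passed of 21 JAK/STAT genes, 16 interferon response genes, 9 complement genes, 17 lipid and lysosome genes and 7 microglia genes, of which 5, 3, 2, 4 and 2 had an unadjusted p under 0.05. Stat3 had a log2 difference of -0.18 (adjusted p = 0.793), Jak1 of -0.18 (0.816) and the feedback inhibitor Socs3 of 0.45 (0.194). In simulated data of this comparison 56% of 2-fold and 95% of 4-fold changes were recovered, so that changes under 2-fold could often not be seen at this depth.

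In the remaining lists, single genes passed. Lgals3, galectin-3, was higher by 0.99 (adjusted p = 0.0078), with Csf1 the 2 of 12 tested genes of the disease-associated list that rose, and its adjusted p was 0.0827 without Monomer. The scavenger receptor Msr1 and the lectin Clec4a1 were lower among 18 tested Fc receptor and lectin genes (log2 differences -1.13 and -1.43), and besides the marker Cd72 no gene of this list was higher. Vcam1 was lower (-1.51) and Mmp12 higher of 13 matrix and adhesion genes, Maf and Klf4 (-0.90) were lower of 19 transcription factors, Egr1 (-0.71) lower of 12 immediate early genes and Cd209a lower of 7 dendritic genes. The call of Msr1 was lost without any library but Monomer (adjusted p up to 0.125), that of Clec4a1 without any but PBS (0.255), those of Vcam1 and Egr1 without any but PFF + VH (0.213 and 0.128) and that of Klf4 without Monomer (0.0566) or PFF + VH (0.0704). In DESeq2 Clec4a1, Vcam1 and Cd209a did not pass (adjusted p = 0.0987, 0.0657 and 0.102). Of the 4 tested non-classical monocyte genes and the 1 tested cycling gene 0 passed by either tool, none with an unadjusted p under 0.05.

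Next, members were set against dendritic cells, 44 cells with the same MHC II limit and at least 2 UMIs over Flt3, Zbtb46 and Ccr7. Only Monomer (12 dendritic cells) and PFF + AZD1480 (15) had the 10 cells per class that the test required. With 2 libraries, which differ in treatment, and the library as a block, the p-values rest mostly on spread shared over genes. They say little of the spread between replicates, and CPM of the other libraries are given beside them as a description. Members had more of the genes of macrophage identity and less of those of conventional dendritic cells. The classes were drawn by Flt3, Zbtb46 and Ccr7, so that genes expressed together with these differ with the choice and are given as a description. Of 3021 genes, 251 were higher in members (8.31% of those tested) and 187 lower (6.19%), and with at least 5 cells per class, a limit chosen after the data were seen that admitted all 4 libraries, 486 of 2444 genes passed. Microglial UMIs had a median of 9.23 per 10000 UMIs in members and 1.48 in dendritic cells over the 4 libraries. With members limited to at most 2 microglial UMIs, 106 of 1452 genes passed. The part of microglial RNA in the higher genes was not tested.

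C1qa was at 4510, 5949, 6502 and 4540 CPM in members and 152, 870, 1619 and 641 CPM in dendritic cells of PBS, Monomer, PFF + VH and PFF + AZD1480 (log2 difference 2.84, SE 0.19, adjusted p = 1.9e-08). C1qb, C1qc and the anaphylatoxin receptors C3ar1 and C5ar1 were also higher and Cfp, properdin, was lower, 6 of the 9 tested complement genes. Csf1r was higher by 1.63, Apoe by 2.12, the lysozyme gene Lyz2 by 2.09 and Cx3cr1 by 2.39, with adjusted p between 4.8e-08 and 0.0022. Of the border macrophage list, 7 of 9 tested genes were higher in members than in dendritic cells and Clec10a was lower, with a median of 2.12 over the list and 0.0047 over all genes. Among 10 antigen presentation genes, the proteases Ctss and Lgmn and the costimulatory Cd86 and Cd83 were higher, and H2-Oa, which restrains peptide loading, was lower (log2 difference -3.39, adjusted p = 0.002). Ciita did not pass (-1.01, adjusted p = 0.104). DESeq2 called 4 of the 9 complement genes, 3 of the 9 border macrophage genes and 3 of the 10 antigen presentation genes.

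As a description, of the 10 tested dendritic cell genes outside the rule, 7 were lower in members, with a list median of -3.06 on the log2 scale. Clec9a, a receptor for dead cells on cross-presenting dendritic cells, stood at 31.9, 16.2, 3.4 and 5.32 CPM in members against 141, 192, 151 and 127 in dendritic cells. Xcr1, a chemokine receptor of the same dendritic cells, had no UMI in any member, where 0 UMIs allow up to 3.64 CPM, and was at 10.9, 73.3, 64.7 and 275 CPM in dendritic cells. Cd209a (-4.03), Dpp4 (-3.69), Bcl11a (-3.00), Napsa (-3.12) and the transcription factor Irf8 (-1.43, adjusted p = 0.0182) were the others. In DESeq2 none of the 10 genes passed, Cd209a, Napsa and Irf8 with adjusted p of 0.166, 0.237 and 0.0719 and the other 4 of the 7 without an adjusted p. Among the 8 genes named by rule in each direction, the chemokine Ccl12 (5.32), the cholesterol exporter Abca1 (5.06), Msr1 (4.62), Apbb2 (4.42), the semaphorin receptor Plxna4 (4.40), Ifi204 (4.38), Frmpd4 (5.61) and Dlc1 were higher. Dlc1 had no UMI in dendritic cells of the 2 libraries tested. Lower were Btla, an inhibitory receptor of lymphocytes and dendritic cells, at 1.21 CPM in members and 175 in dendritic cells, together with Xcr1, Ccser1, Kmo, P2ry10, Adam23, Klri1 and Aff3, and Xcr1, Ccser1, Adam23 and Klri1 had no UMI in members. Of 18 JAK/STAT genes, the receptor chain Il10rb was higher and Jak2 and Csf2rb were lower, Jak2 at 51.1, 32.5, 20.4 and 26.6 CPM against 446, 147, 367 and 204 (log2 difference -2.50, SE 0.51, adjusted p = 0.0023). DESeq2 called none of the 18 and gave no adjusted p for these 3. The Fc receptor and lectin list held 8 of 14 genes higher, with the markers Fcgr4 and Cd72 among them, the lipid and lysosome list 8 of 16, the chemokine list 7 of 11, the disease-associated list 6 of 10, the microglia list 5 of 5, and none of these lists had a lower gene. DESeq2 called 2, 3, 4, 2 and 3 genes of these lists in the same order.

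Without cells of more than 1 hashtag, which left fewer cells, 54 of 2000 genes passed between members and dendritic cells. In that setting, added after the data were seen, Csf1r (adjusted p = 0.054) and Apoe (0.104) lost their calls, while C1qa, C1qb, C1qc and Dpp4 kept theirs.

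Members were lastly set against cells of a monocyte rule, which had at least 3 UMIs over Ly6c2, Ccr2 and Chil3 with at least 2 of these genes seen (94 cells, of which 15 in PBS, 46 in PFF + VH and 27 in PFF + AZD1480 entered the test). These cells went against their name. Their leading genes were those of neutrophil granules, with S100a9 at 63890, 95160, 31970 and 81140 CPM and Ngp at 18723, 18237, 9656 and 20125 CPM, and they are called here by their rule. In the members S100a9 was at 12.2 CPM and Ngp at 0. Of 3439 genes, 339 were higher in members (9.86% of those tested) and 349 lower (10.1%), and the 8 lower genes named by rule were Ngp, Retnlg, Ltf, Camp, S100a9, S100a8, Lcn2 and Wfdc21. Against the cells of this rule with at most 9 UMIs over 5 granule genes, an alternative chosen after the data were seen, 302 of 2762 genes passed.

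Members had more of C1q, Apoe and Cd36 than cells of the monocyte rule. The monocyte rule has no MHC II limit, and MHC II took a median of 0.00382% of the UMIs of its cells against 4.72% in members. The antigen presentation genes, which are regulated together with MHC II, therefore differ with the choice of members and are given as a description. Of 10 antigen presentation genes outside the rule 8 were higher and none was lower, with Cd83 at 2057, 2441, 2014 and 2914 CPM in members against 93.9, 291, 857 and 231 (log2 difference 2.90). H2-DMa was higher by 1.60, Ciita by 2.17, C1qa by 2.82 and Apoe by 3.22. The 8 higher genes named by rule were Stard13 and the chemokine Cxcl1, both without a UMI in cells of the rule, Tnip3, a brake on NF-κB signalling, at 83.1, 249, 71.5 and 558 CPM against 0, 0, 0 and 8.10, the fatty acid receptor Cd36 (4.73), Myo1e (4.61), Ms4a7 (4.50), Shtn1 (4.07) and the marker Cd72. Of 8 tested classical monocyte genes 6 were lower in members, among them Plac8, F13a1, Fn1, Hp and Gm9733. The cells of the rule were chosen by Ly6c2, Ccr2 and Chil3 of this same list, so that its other genes differ with the choice and are a description too. Of the non-classical list Cd36 was higher and Itgal, Cebpb and Pglyrp1 were lower, 4 of 6 tested. In all, 9 of 12 immediate early and heat shock genes, 9 of 17 lipid and lysosome genes and 6 of 10 inflammatory genes were higher in members, and the cytokine Osm was lower, a call lost without PFF + AZD1480 (adjusted p = 0.0819). DESeq2 called 7, 3 and 4 genes of these 3 lists, and Apoe, Cd36 and Ctsc were the lipid and lysosome genes that it called.

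A few members held nearly all UMIs of Ly6c2 and Plac8. The 11 members with at least 3 UMIs over Ly6c2 and Plac8, a group picked after the data were seen, carried 11.4% of all UMIs of the members but all 61 UMIs of Ly6c2 and 226 of the 228 of Plac8. Among them 6 were from PBS, 4 from PFF + VH, 1 from PFF + AZD1480 and none from Monomer. They also carried 92.6% of the UMIs of Ly6a, all 47 of Ly6i and 75.6% of those of the guanylate-binding protein gene Gbp2. Of the choosing genes they held 18.1% of the Klra2 UMIs, 1.52% of Lilra5 and 0.658% of Col14a1, so that 54 UMIs of Klra2 stood beside 3 of Lilra5 and 1 of Col14a1 in these 11. Ccr2, which cells from blood monocytes can carry, was spread more widely, with 318 UMIs in 75 of the 152 members, 33.3% of them in the 11. The 12 genes of the classical monocyte list, which holds Ly6c2, Plac8 and Ccr2, summed to 2875, 520, 687 and 861 CPM in all members and to 589, 520, 328 and 771 CPM without the 11. In border macrophages the list, which also holds F13a1, summed to 1010, 732, 944 and 1052 CPM. That was above the members in every library but PBS, and in each library without the 11, so that the list was not particular to members. Against border macrophages, Plac8 was higher by 4.20 on the log2 scale (adjusted p = 4.7e-06), with 1022, 0, 201 and 47.9 CPM in members, and its adjusted p was 0.13 in DESeq2 and 0.122 without the library block. When these 11 were left out, 157 of 5069 genes passed in that comparison, all 16 genes named by rule kept their call and Lgals3 lost it (adjusted p = 0.496).

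The share of members among all cells overlapped between the libraries. With exact binomial 95% intervals, it was 0.151% (0.0944% to 0.228%) for PBS, 0.206% (0.140% to 0.293%) for Monomer, 0.206% (0.161% to 0.260%) for PFF + VH and 0.215% (0.143% to 0.311%) for PFF + AZD1480. After thinning each cell to 2000 UMIs, which 12944, 12933, 19617 and 11470 cells reached, the shares were 0.209%, 0.263%, 0.189% and 0.201%. Over hashtags, members were 0.266%, 0.424%, 0.0471% and 0.242% of the single-hashtag cells of PFF + VH (12, 16, 2 and 13 members) and 0.169%, 0.201%, 0.214%, 0.169% and 0.150% of those of PFF + AZD1480 (4, 5, 3, 5 and 2 members). The means were 0.245% ± 0.155 (SD, n = 4) and 0.181% ± 0.0262 (SD, n = 5), and the difference of -0.0644 percentage points was within the spread of the hashtags (two-sided exact permutation test, p = 0.46, smallest possible p 0.0159). Hashtag 3 of PFF + VH was the lowest of the 9, and without it the difference was -0.130 points with an exact permutation p of 0.0357, the smallest that 3 against 5 hashtags allow. With hashtags assigned by 80% of a cell's hashtag UMIs, the means were 0.490% and 0.238%, a difference of -0.252 points (exact permutation p = 0.0952), and in thinned cells the difference was -0.0147 points (p = 0.889). No hashtag was found on 37.3% of all cells and 4.2% of members in PFF + VH. In PFF + AZD1480 these were 6.4% and 3.6%. A single hashtag was found on 52.0% of all cells and 60.6% of members in PFF + VH. In PFF + AZD1480 it was found on 81.0% and 67.9%. Shares over single-hashtag cells therefore depend on the labelling, and the whole libraries (0.206% and 0.215%) stood in the opposite order to the hashtag means.

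The share of members beside border macrophages was highest in PFF + VH among the 4 libraries, and moved with the settings. Members were 39.2% of members and border macrophages together in PFF + VH (71 of 181, 32.1% to 46.7%), against 15.8% in PBS (10.2% to 23.0%), 20.5% in Monomer (14.4% to 27.9%) and 18.9% in PFF + AZD1480 (12.95% to 26.2%). These intervals cover counting error within 1 library each, and that of PFF + VH did not overlap with the others. The rule counts UMIs, and a shallower cell shows fewer border UMIs. In cells thinned to 2000 UMIs the share was 44.0% in PFF + VH (33.2% to 55.3%) and 28.4%, 29.6% and 26.4% in PBS, Monomer and PFF + AZD1480, with intervals that overlap. Without cells of more than 1 hashtag the share was 33.8% in PFF + VH (25.9% to 42.4%) and 21.3% in PFF + AZD1480 (13.5% to 30.9%), the first overlapping with Monomer too but not with PBS. With at least 3 UMIs of the choosing genes it was 27.6% in PFF + VH (20.7% to 35.5%) against 17.2% in Monomer (11.5% to 24.4%), 14.9% in PFF + AZD1480 (9.46% to 21.9%) and 11.4% in PBS (6.5% to 18.1%), of which PBS did not overlap. With members limited to at most 2 microglial UMIs it was 17.9% in PFF + VH (11.8% to 25.5%) and 7.69% to 8.40% in the other libraries, whose intervals all overlap with it. Border macrophages were not limited in this way, so that the share falls with the setting itself. Over hashtags, members were 36.4%, 36.4%, 15.4% and 33.3% of the single-hashtag members and border macrophages of PFF + VH and 14.3%, 22.7%, 33.3%, 20% and 25% of those of PFF + AZD1480, groups that overlap. The difference of -7.29 percentage points did not pass a two-sided exact permutation test (p = 0.238, smallest possible p 0.0159), which was added after the data were seen. It was -17.2 points (exact permutation p = 0.0159) when cells of more than 1 hashtag were counted at their highest hashtag, and 2.69 points (p = 0.937) in thinned cells. PBS and Monomer had no hashtags, so that they allow no such test.

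**Figure D4:**
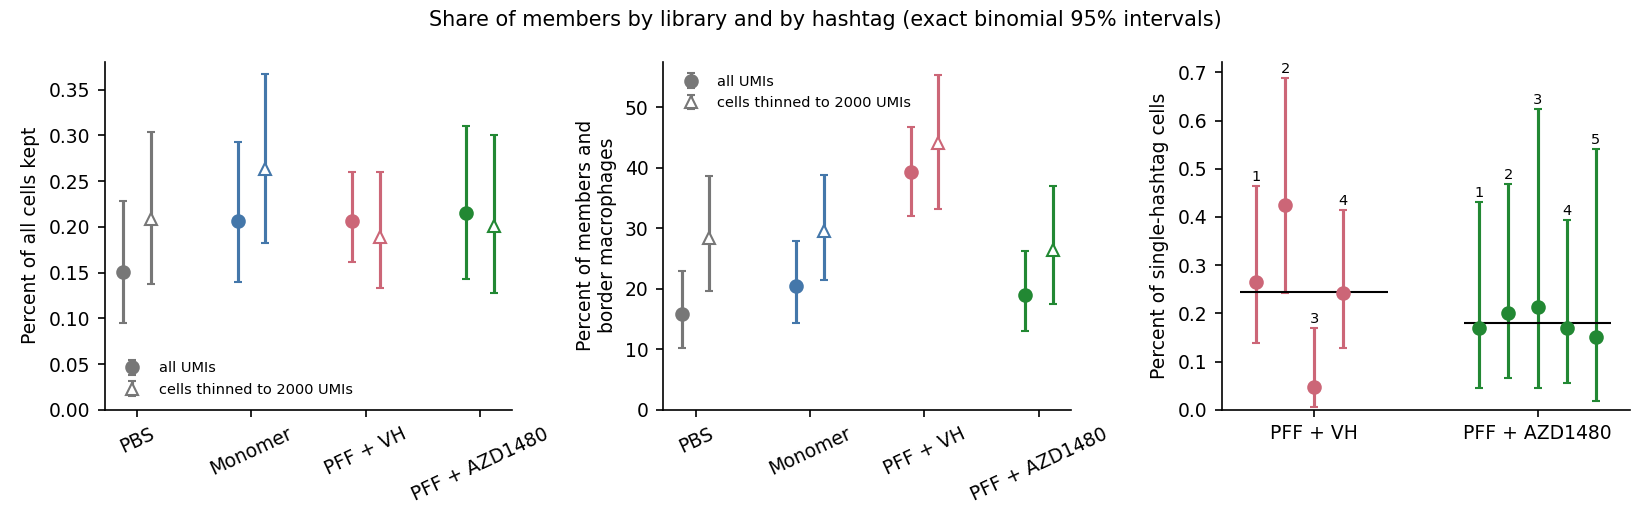
Share of members among all cells kept (left) and among members and border macrophages (middle), in percent by library, from all UMIs (dots) and from cells thinned to 2000 UMIs (triangles), and among single-hashtag cells by hashtag (right, numbers are hashtags and lines are means); bars are exact binomial 95% intervals. The shares of all cells overlap between libraries, while PFF + VH is highest at 39.2% in the middle panel.

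Levels within the members were then compared between libraries, as ratios of at least 2 with at least 20 UMIs over both and Poisson intervals that do not overlap. These compare 2 libraries and not the conditions. Monomer against PBS had 147 of 2829 genes past this limit (5.2%), PFF + VH against Monomer 130 of 3709 (3.5%) and PFF + AZD1480 against PFF + VH 183 of 3824 (4.79%). Of the 147, 108 were lower in Monomer, with 14 of the 22 genes of the interferon response list among them. Isg15, a ubiquitin-like protein, was at 307 CPM in PBS and 10.8 in Monomer, and Cxcl9, a chemokine for T cells, at 830 and 0 CPM (0 UMIs, which allow up to 16.2 CPM). Of the 134 UMIs of Cxcl9 in all members, 109 came from 1 cell. Without the 11 members high in Ly6c2 and Plac8, 68 genes were past the limit, and of the 14 interferon genes Gbp5, Cxcl9, Cxcl10 and Irf1 stayed.

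Between PFF + VH and Monomer, Ctsd and single genes of the microglia list were higher in PFF + VH. Ctsd, the lysosomal protease cathepsin D, was at 466, 655, 2378 and 1292 CPM in the 4 libraries. Ctsd, the protease Ctsl (206 CPM in Monomer and 470 in PFF + VH) and the receptor for dying cells Mertk (173 and 354) were the genes of the lipid and lysosome list past the limit. The summed level of that list was higher in Monomer (38770 CPM) than in PFF + VH (28450 CPM), of which Apoe made up 30080 and 17160 CPM. Sparc, a matrix protein that microglia make in quantity, was at 157 CPM in Monomer and 983 in PFF + VH, Olfml3 at 114 and 316 and Slc2a5 at 5.41 and 68.1. Sparc, Olfml3 and Slc2a5 are on the microglia list, whose summed level was highest in PFF + VH, and Ctsd was at 4351 to 4993 CPM in microglia of the 4 libraries. Among members with at most 2 microglial UMIs, Ctsd was at 317 CPM in Monomer and 1697 in PFF + VH. Mmp12 was at 108 CPM in Monomer and 303 in PFF + VH, and Il1a, a cytokine related to Il1b, at 65.0 and 265 CPM. Lower in PFF + VH than in Monomer were Ciita (152 and 61.3 CPM in Monomer and PFF + VH), Msr1 (152 and 47.6) and Ptgs2 (130 and 27.2), the inducible cyclooxygenase.

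Between PFF + AZD1480 and PFF + VH, 123 genes were higher with the inhibitor's library and 60 lower. Cxcl10, an interferon-induced chemokine, had 0 UMIs in PFF + AZD1480 (up to 15.9 CPM) against 78.3 CPM in PFF + VH. Over the 22 interferon response genes, however, the summed level of the single-hashtag members was 1919, 1694, 4998 and 3195 CPM in the hashtags of PFF + VH and 1221, 1523, 2635, 1566 and 4848 in those of PFF + AZD1480, groups that overlap. The 26 JAK/STAT genes summed to 2182 to 3690 CPM in PFF + VH and 2827 to 4580 in PFF + AZD1480, overlapping too. The MHC II genes of the rule, given as a description, summed to 34980 to 59900 CPM over the hashtags of PFF + VH and 32030 to 85730 over those of PFF + AZD1480. These groups overlap, with medians of 53660 and 46400 CPM and means in the opposite order, 50550 and 55370 CPM. Il1a was at 31.9 CPM in PFF + AZD1480 and 265 in PFF + VH, Mmp12 at 10.6 and 303 and Ccl12 at 117 and 510. Higher were Ptgs2 (276 and 27.2 CPM), Ccl2 (542 and 139), Tnip3 (558 and 71.5), Myo1e (1255 and 333) and Frmpd4 (728 and 194), of whose 225 UMIs 52.4% came from 3 members.

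With hashtags as replicates, the planned gene test needed 5 members per hashtag and could not be run. With at least 2 members, a limit set after the data were seen, 2 of 364 genes passed between PFF + AZD1480 and PFF + VH (0.549%), both lower with AZD1480, and 31 had an unadjusted p under 0.05. Ctsd was at 1720, 1803, 1126 and 2561 CPM in the hashtags of PFF + VH and 523, 586, 207, 267 and 252 in those of PFF + AZD1480 (log2 difference -2.20, SE 0.36, adjusted p = 0.0122). Sparc was at 463, 988, 704 and 441 CPM against 174, 117, 155, 115 and 0 (log2 difference -2.37, SE 0.48, adjusted p = 0.0426), with 0 to 4 UMIs per hashtag of PFF + AZD1480. The groups did not overlap for either gene. The call of Ctsd was lost without hashtag 2 or 4 of PFF + VH (adjusted p = 0.0669 and 0.0901) or hashtag 4 of PFF + AZD1480 (0.0536). That of Sparc was lost on leaving out any hashtag (adjusted p 0.0838 to 0.515) except hashtag 5 of PFF + AZD1480 (0.0448). DESeq2 also passed 2 genes. With RLE scaling Sparc lost its call (adjusted p = 0.051). With the hashtag number as a replicate block in edgeR both genes lost their calls (adjusted p = 0.086 for Ctsd and 0.0905 for Sparc). Among cells with at most 2 microglial UMIs, where 5 of the 9 hashtags had enough members, 22 genes passed, Ctsd with an adjusted p of 0.0307, while 0 passed in edgeR with at least 3 UMIs of the choosing genes or in thinned cells, with 11 and 6 at an unadjusted p under 0.05.

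Values of microglial genes and of cells with more than 1 hashtag are given beside these calls. The 5 microglial genes summed to 1544, 2086, 704 and 1129 CPM in the hashtags of PFF + VH and 742, 976, 568, 917 and 441 in those of PFF + AZD1480, lower on the whole with AZD1480 and overlapping. In PFF + AZD1480, the 8 members with more than 1 hashtag, which do not enter the test, had 200 UMIs of Ctsd (2627 CPM) against 42 (382 CPM) in the 19 with 1 hashtag, and Sparc was at 933 against 118 CPM. In PFF + VH, Ctsd was at 2992 CPM in members with more than 1 hashtag and 1892 in those with 1. In border macrophages with 1 hashtag Ctsd was at 661 CPM with AZD1480 and 1082 CPM with VH. With at most 2 microglial UMIs per member the log2 difference of Ctsd was -2.28, from 5 hashtags, and -2.20 with all members, while Sparc was not tested there. All members under this limit had a median of 2951.5 UMIs in PFF + VH and 5050 in PFF + AZD1480, so that the limit was looser in PFF + VH as a share of a cell's UMIs. The part of the cells left out in the calls of Ctsd and Sparc was not tested.

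**Figure D5:**
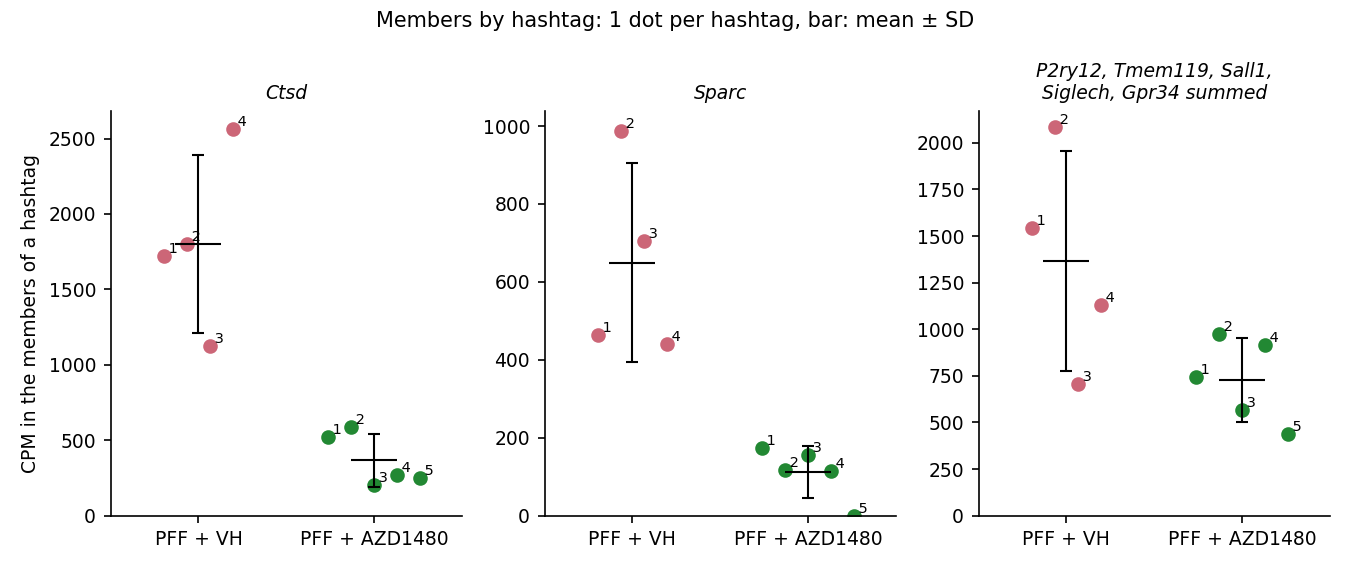
Level in CPM (vertical axis) of Ctsd, Sparc and 5 summed microglial genes in the single-hashtag members of each hashtag (dots, numbered) of PFF + VH and PFF + AZD1480; bars are means ± SD. The 5 hashtags of PFF + AZD1480 lie below the 4 of PFF + VH for Ctsd (207 to 586 against 1126 to 2561 CPM) and Sparc, and overlap with them for the microglial genes.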

How the data were processed

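The members and gene lists were chosen with earlier results of these data known. CD45+ cells of 4 libraries (10x 3′) were sequenced. The authors deposited raw UMI counts of each gene in each cell, not normalized, made on mm10 by Cell Ranger (file header: 7.0.1), along with hashtag counts for PFF + VH and PFF + AZD1480. Doublets were not called other than by hashtags. Cells with 500 to 15000 UMIs, 250 to 5000 genes and at most 10% mitochondrial UMIs were kept, as in the methods of the study. Classes of cells were exclusive and drawn by UMI limits, members first, and genes of the class rules stayed out of all counts of calls. Counts were summed per library and class (at least 10 cells each) and compared by edgeR 4.0.16 in R 4.3.3 (quasi-likelihood test, TMM, filterByExpr, library as block, Benjamini-Hochberg adjustment over all genes tested, threshold 0.05). The study itself relied on other tests, a Hurdle model among samples and Partek's gene-specific analysis among clusters. Named genes were the 8 per direction with the largest log2 fold change among those past the threshold with at least 50 CPM in the higher class and 1 direction in all 4 libraries, without mitochondrial, ribosomal, Gm or rule genes, besides genes of the lists. Some of these genes are not reported here.

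Hashtags were called with HTODemux (Seurat 5.3.0, positive quantile 0.99), and shares were compared by a two-sided exact permutation test (scipy 1.17.1). Poisson and binomial 95% intervals cover counting error only. Summed members held 156532 to 293891 UMIs per library. On simulated counts, 4-fold changes were recovered in 95%, 71%, 87% and 97% of genes and 2-fold changes in 56%, 10%, 45% and 51%, for border macrophages, dendritic cells, the monocyte rule and the hashtags. The same number of genes was changed in each simulation, with 1 dispersion for all genes. These made up a far larger part of the 369 genes of the hashtag comparison than of the 5243 for border macrophages. Recovery over hashtags can therefore be too high for data in which few genes change. Gene positions are from GENCODE annotation of mm10. Alternatives were RLE scaling, no filter, DESeq2 1.42.0, no library block, hashtags as samples, stricter or thinned cells, and leaving out libraries or hashtags. Those without members high in Ly6c2 and Plac8, without cells of more than 1 hashtag, with 5 cells per class, with 2 members per hashtag, with multi-hashtag cells at their highest hashtag and with cells of the monocyte rule low in granule genes were added after the data were seen.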

Additional observations from a re-analysis of the deposited data

How the results depend on the processing

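No named gene that could be tested turned its direction, but these genes were named for 1 direction in all 4 libraries, so that a turn was unlikely from the start. Several alternatives also gave a value for few of the 16 genes named in a comparison (hashtags as samples for 1, thinned cells for 2 against border macrophages, DESeq2 for 2 against dendritic cells). Between members and border macrophages, 119 genes passed, and 196 without a filter on low counts, 59 with DESeq2, 40 without the library block, 4 with hashtags as samples, 27 with at most 2 microglial UMIs per member and 53 (without Monomer) to 102 on leaving out 1 library. The limit on microglial UMIs was set on members only, here and in the other comparisons. For dendritic cells the 438 genes became 94 with DESeq2, 106 with few microglial UMIs, 203 without members high in Ly6c2 and Plac8 and 54 without cells of more than 1 hashtag, and the fits on hashtags, on thinned cells and without 1 library could not be made. For the monocyte rule the 688 genes became 339 with DESeq2, 438 without the block, 41 with hashtags as samples, 228 in thinned cells, 259 with few microglial UMIs, 302 with cells low in granule genes, and 465 to 684 on leaving out 1 library. Against the 2 genes called between hashtags, 1 passed with RLE scaling and 0 in edgeR with the hashtag number as a replicate block (44 at an unadjusted p under 0.05), at least 3 UMIs (11) or thinned cells (6), while 13 passed without a filter and 22 with few microglial UMIs, and 0 to 2 on leaving out 1 hashtag. Samples of like number did not deviate together in every pair (correlations 0.178, 0.300, 0.215 and -0.111), and with the hashtag number as a block the difference in share was -0.0568 points (exact permutation p = 0.5, smallest possible 0.125). That difference ran from -0.130 to -0.00457 points on leaving out 1 hashtag and from -0.252 (hashtags by 80% of UMIs) to -0.0147 points (thinned cells) over the other settings with the same denominator. The difference in the share of members beside border macrophages, -7.29 points, ran from -12.3 to -5.10 on leaving out 1 hashtag, was -7.78 with the block (exact permutation p = 0.5), turned to 2.69 in thinned cells and was -17.2 with cells of more than 1 hashtag at their highest hashtag. With few microglial UMIs, members were 0.0684%, 0.0732%, 0.0697% and 0.0768% of cells in PBS, Monomer, PFF + VH and PFF + AZD1480, and in PFF + VH 0.122% with at least 3 UMIs of the choosing genes and 0.150% without cells of more than 1 hashtag. Genes past the fold between libraries numbered 18, 37 and 40 in thinned cells (Monomer against PBS, PFF + VH against Monomer, PFF + AZD1480 against PFF + VH), 68 for the first without members high in Ly6c2 and Plac8, 44 for the second with few microglial UMIs and 111 for the third without cells of more than 1 hashtag. Settings that drop cells or samples test fewer counts, and other causes were not tested.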
